A study of Mus musculus with 10 samples.

Results

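Posterior Hox genes were followed in mouse E14 embryonic stem cells that had been exposed to retinoic acid, with and without a CTCF binding element. The members were the Hox genes of paralogue groups 9 and 10, together with Hoxb13, taken by gene symbol; the rule uses no measured value, although the set was picked with earlier results of these data known. All 8 (Hoxa9, Hoxb9, Hoxc9, Hoxd9, Hoxa10, Hoxc10, Hoxd10 and Hoxb13) matched exactly 1 Ensembl identifier among the 52636 in each count table. The tables held 39 Hox genes in all.

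The WT libraries came from unedited cells and the CBE-KO libraries from cells lacking the element, with 2 libraries per group, which the series text calls biological replicates. Both groups had been kept with LIF and inhibitors of MEK and GSK, then replated without them in medium holding retinoic acid at a labelled dose of 2 µM, and taken for RNA sequencing at 24 h. The labels do not say how the element was removed, whether both alleles lack it, or how many clones stand behind the CBE-KO libraries. The study's title asks how the element shapes contacts between nearby enhancers and the HoxA cluster. The gene counts were used here to ask how these posterior Hox genes differ when the element is missing. No library without retinoic acid was used, so every difference below is one between treated cells.

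Hox genes encode homeodomain transcription factors that lie in 4 clusters and give cells their position along the body axis. Genes at the anterior end of a cluster are switched on early by retinoic acid, while those of groups 9 and above are normally activated late, in the posterior trunk, the limbs and the urogenital region, and are held silent in stem cells by Polycomb repression. CTCF binding sites within and beside the clusters are known as borders between active and silent chromatin.

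The libraries held 14108038 to 15632960 counts, so that 3 counts, taken as the floor of detection, corresponded to 0.185 to 0.218 CPM (counts relative to library size, scaled by edgeR's trimmed mean of M-values, TMM). Of 16005 genes that passed the expression filter, 43.1% passed edgeR's quasi-likelihood test for a difference between the groups (adjusted p under 0.05), 21.6% higher and 21.5% lower in CBE-KO. The Y-linked genes Ddx3y, Eif2s3y and Uty had 0 to 6 counts in the WT libraries and 267 to 920 in the CBE-KO libraries, a difference between the lines whose part in the results below was not tested. Ctcf itself did not pass (log2 fold change -0.05 ± 0.05, SE; edgeR adjusted p = 0.472). Since the removed element is noncoding, gene counts could not check its loss.

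Of the 8 posterior Hox genes, 5 were higher in CBE-KO past the threshold, none was lower, 1 (Hoxa10) did not pass, and 2 (Hoxd9 and Hoxd10) had too few counts to enter the test. This share reads against 21.6% of all tested genes called higher, and against 24.5% of the 7290 tested genes that lay in the same range of mean CPM as the tested members, 1.08 to 22.9. Every one of the 8 genes had both CBE-KO libraries above both WT libraries in CPM, a pattern found for 26.6% of all genes with a count, for 36.4% of the tested genes and for 42.4% of those in the same CPM range. The log2 fold changes of the 6 tested genes ran from 0.44 to 5.22 with a median of 1.86, where the median of all tested genes was 0.01. Hoxc9 and Hoxc10 passed the expression filter through their CBE-KO libraries alone, so their entry into the test already required a difference. In bulk RNA, more cells that express a gene and more RNA per expressing cell cannot be told apart.

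Detection above 3 counts separated the members into those on in both groups and those seen mainly in CBE-KO. Hoxa9, Hoxb9, Hoxa10 and Hoxb13 were above 3 counts in all 4 libraries. Hoxc10 was above 3 counts in 3 libraries, both of CBE-KO and 1 of WT. Hoxc9 and Hoxd9 exceeded 3 counts in both CBE-KO libraries and in neither WT library, and Hoxd10 in 1 CBE-KO library only.

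**Figure D1:**
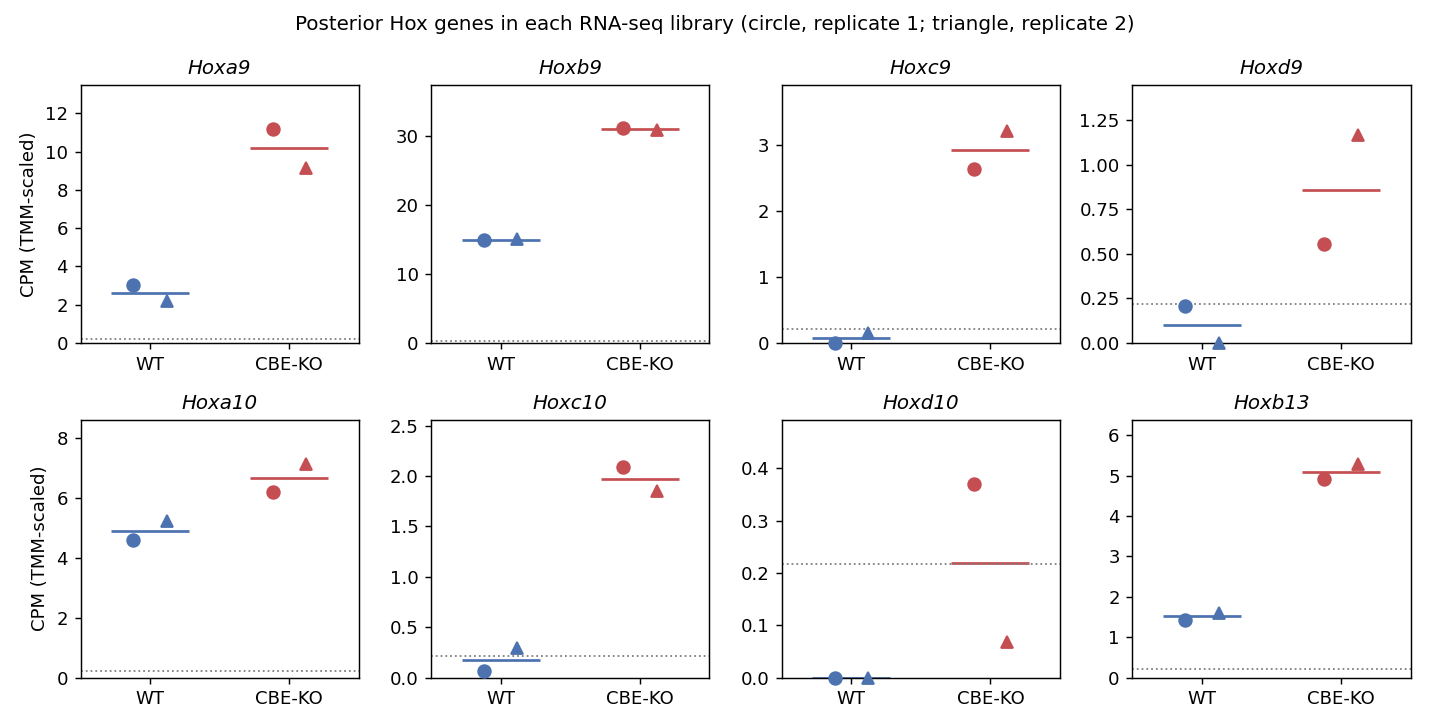
TMM-scaled CPM of the 8 posterior Hox genes in each library, with 1 panel per gene and its own linear axis from 0. Points are libraries, horizontal lines are group means and the dotted line is the highest floor of 3 counts (0.218 CPM); in each panel both CBE-KO points lie above both WT points, and Hoxc9, Hoxd9 and Hoxd10 have no WT point above the floor.

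In the HoxA cluster, the locus of the study's question, the neighbours Hoxa9 and Hoxa10 gave different results. Hoxa9 (ENSMUSG00000038227; RefSeq gene span chr6:52223097-52227370, GRCm38) encodes a group 9 factor best known from blood progenitors and leukaemia. It gave 44 and 30 counts in the WT libraries and 182 and 133 in the CBE-KO libraries, or 3.01 and 2.18 CPM against 11.2 and 9.12 CPM. Both CBE-KO libraries were well above both WT libraries. Its mean rose from 2.59 ± 0.586 to 10.2 ± 1.46 CPM (SD, n = 2 each), 3.91-fold, or 1.97 ± 0.21 on the log2 scale (SE; adjusted p = 1.13e-06 in edgeR).

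Hoxa10 (ENSMUSG00000000938; chr6:52231197-52240854) acts in the uterus, the limb and the hindlimb-level spine. It gave 67 and 72 counts in the WT libraries and 101 and 104 in the CBE-KO libraries, or 4.58 and 5.23 CPM against 6.21 and 7.13 CPM. The groups did not overlap, but the gap between them was close to the spread within CBE-KO. The log2 fold change was 0.44 ± 0.20 (SE) and did not pass (edgeR adjusted p = 0.0801). When libraries were scaled by their totals alone it was 0.55 and passed (adjusted p = 0.0298), a setting that also moved the median of all tested genes to 0.11. Over all 11 alternatives tried, the adjusted p of Hoxa10 ran from 0.0298 to 0.384.

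Since each library holds both genes, their ratio does not depend on scaling. Hoxa9 had 0.657 and 0.417 counts per count of Hoxa10 in the WT libraries, and 1.80 and 1.28 in the CBE-KO libraries. The Hoxa9 share was higher in both CBE-KO libraries. With 2 libraries against 2 an exact two-sided permutation test cannot go below p = 0.333, so the ratios are given as a description and the difference between the changes of the 2 genes was not tested.

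The start regions of these 2 genes are shown because they are neighbours on the same strand that differed in outcome. They are the 250 bases before each annotated start in RefSeq (GRCm38.p6), read 5′ to 3′ on the minus strand, with each CG dinucleotide in capitals. RefSeq gives Hoxa10 an outer start and an inner one, and the region before the inner start lies inside the gene.
Hoxa9, chr6:52227371-52227620: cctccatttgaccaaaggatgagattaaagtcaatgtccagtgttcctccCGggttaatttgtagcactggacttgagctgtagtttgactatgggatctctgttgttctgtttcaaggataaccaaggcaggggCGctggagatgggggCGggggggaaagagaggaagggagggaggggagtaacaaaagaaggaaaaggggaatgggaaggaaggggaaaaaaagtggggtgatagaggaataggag
Hoxa10 outer start, chr6:52240855-52241104: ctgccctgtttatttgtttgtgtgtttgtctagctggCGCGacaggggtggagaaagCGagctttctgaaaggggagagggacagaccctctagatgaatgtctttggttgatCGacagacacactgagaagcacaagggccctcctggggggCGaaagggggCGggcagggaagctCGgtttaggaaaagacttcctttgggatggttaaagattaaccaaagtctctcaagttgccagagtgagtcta
Hoxa10 inner start, chr6:52234940-52235189: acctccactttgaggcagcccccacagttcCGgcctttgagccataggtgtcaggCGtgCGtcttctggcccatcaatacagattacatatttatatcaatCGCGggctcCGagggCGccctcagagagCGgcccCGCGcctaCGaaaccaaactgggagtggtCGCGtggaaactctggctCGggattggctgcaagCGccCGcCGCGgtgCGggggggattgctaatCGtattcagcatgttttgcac
The Hoxa9 region held 3 CG dinucleotides and 49.6% G+C, the outer Hoxa10 region 7 and 51.6%, and the inner Hoxa10 region 20 and 59.2%. The medians over 32851 RefSeq start regions of the same length were 6 CG dinucleotides and 52.4% G+C. These regions were also searched on both strands for 5 sets of letters: the retinoic acid receptor half-site AGGTCA, a core bound by CDX and posterior HOX proteins (TTTATNNC), a core of the CTCF motif (AGGGGGC), the TATA box TATAAA and the CCAAT box CCAAT. None of the 5 occurred before the Hoxa9 start. Before the outer Hoxa10 start, AGGGGGC occurred 93 bases upstream. Before the inner Hoxa10 start, TTTATNNC occurred 160 bases upstream, where it overlaps a TATAAA match on the other strand, and CCAAT occurred 64 bases upstream on the other strand. Among all start regions, TTTATNNC was found in 11.2%, TATAAA in 12.4%, CCAAT in 33.8%, AGGTCA in 14.0% and AGGGGGC in 9.43%. In the same search of the HoxD members, the only Hoxd10 region matched (chr2:74691641-74691890) lies before a start inside the gene's RefSeq span. It held AGGTCA and CCAAT, each on the other strand, 69 and 26 bases upstream of that inner start. The region before Hoxd9 held none of the 5. These matches describe the letters and are no evidence of binding. RefSeq start regions were matched for Hoxa9, Hoxa10, Hoxd9 and Hoxd10, and not for Hoxb9, Hoxc9, Hoxc10 and Hoxb13.

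In the HoxB cluster both members rose. Hoxb9 (ENSMUSG00000020875; chr11:96271330-96276595), a group 9 gene of the thoracic region and the member with the most counts, gave 217 and 207 counts in the WT libraries and 505 and 449 in the CBE-KO libraries. In CPM these were 14.8 and 15.0 against 31.1 and 30.8, so the libraries of a group differed far less than the groups. The mean rose from 14.9 ± 0.139 to 30.9 ± 0.183 CPM (SD, n = 2 each), 2.07-fold, or 1.05 ± 0.10 on the log2 scale (SE; adjusted p = 1.54e-07 in edgeR).

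Hoxb13 (ENSMUSG00000049604; chr11:96194316-96196610) is the most posterior HoxB gene, active in the tail bud and later in the prostate and hindgut. It is set apart from Hoxb9 by a long stretch without other protein-coding Hox genes. It gave 21 and 22 counts in the WT libraries and 80 and 77 in the CBE-KO libraries, or 1.44 and 1.60 CPM against 4.92 and 5.28 CPM. The groups were clearly apart. The mean rose from 1.52 ± 0.114 to 5.10 ± 0.256 CPM (SD, n = 2 each), 3.35-fold, or 1.75 ± 0.26 on the log2 scale (SE; adjusted p = 3.61e-05 in edgeR). Counts of Hoxb9 per count of Hoxb13 were 10.3 and 9.41 in WT and 6.31 and 5.83 in CBE-KO. The ratio was lower in both CBE-KO libraries, again a description with no test.

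In the HoxC cluster both members were near or at the floor in WT and clearly present in CBE-KO. Hoxc9 (ENSMUSG00000036139; chr15:102977032-102984444), a trunk-level gene known from spinal motor neurons, gave 0 and 2 counts in the WT libraries and 43 and 47 in the CBE-KO libraries. In CPM it went from 0 and 0.145 to 2.64 and 3.22. Summed over the libraries of each group, 90 counts stood against 2, a scaled ratio of 41.5 with a 95% exact interval of 11.2 to 347.5, which covers counting error only. Hoxc9 rose in edgeR's test (log2 fold change 5.22 ± 0.62, SE; adjusted p = 3.21e-06). The size of this value rests on the 2 counts of WT replicate 2: without that library it was 8.47, and without WT replicate 1 it was 4.26, with the gene past the threshold each time. The first of these is fitted against a lone WT library at 0 counts and is no bound on the fold.

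Hoxc10 (ENSMUSG00000022484; chr15:102966796-102971898), a gene of the lumbar region, gave 1 and 4 counts in the WT libraries and 34 and 27 in the CBE-KO libraries. These were 0.0683 and 0.290 CPM against 2.09 and 1.85 CPM, and the higher WT library stood just above the floor. The summed counts, 61 against 5, gave a scaled ratio of 11.2 with a 95% exact interval of 4.56 to 35.8 (counting error only). Hoxc10 rose by 3.43 ± 0.56 on the log2 scale (SE; adjusted p = 8.41e-05 in edgeR). Its size also depended on single WT libraries, at 4.69 without WT replicate 2 and 2.73 without WT replicate 1.

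The HoxD members had the fewest counts of the 8. Hoxd9 (ENSMUSG00000043342; chr2:74697763-74700208), a gene of the limb and the trunk, gave 3 and 0 counts in the WT libraries and 9 and 17 in the CBE-KO libraries. The CBE-KO libraries, at 0.553 and 1.17 CPM, were the only ones above the floor, and they differed from each other by more than the lower of them differed from WT. The summed counts, 26 against 3, gave a scaled ratio of 7.98 with a 95% exact interval of 2.45 to 41.2 (counting error only). Hoxd9 did not enter edgeR's test. In the fit without an expression filter it had a log2 fold change of 2.91 and passed (edgeR adjusted p = 0.00211), while DESeq2 gave 3.02 and did not pass (adjusted p = 0.0922).

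Hoxd10 (ENSMUSG00000050368; chr2:74684273-74695106), a gene of lumbar motor neurons and the limb, had 0 counts in both WT libraries and 6 and 1 in CBE-KO. Only the first CBE-KO library, at 0.369 CPM, was above the floor, so no fold is given. It did not pass even in the fit without a filter (edgeR adjusted p = 0.151). The RefSeq spans of Hoxd10 and Hoxd11 overlap, and reads of overlapping genes cannot be assigned with certainty here.

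**Figure D2:**
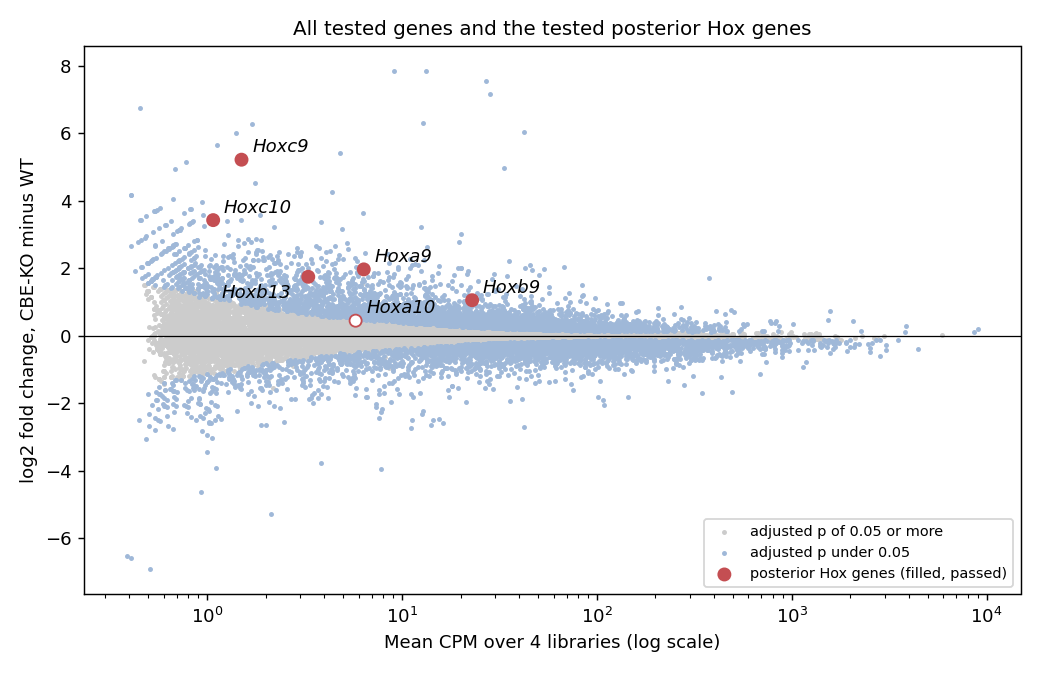
Log2 fold change (CBE-KO minus WT) of all 16005 tested genes against their mean CPM over the 4 libraries on a log axis, with the 6 tested posterior Hox genes in red, filled where the adjusted p was under 0.05. Hoxc9 (5.22) and Hoxc10 (3.43) lie at the low-count end, Hoxb9 (1.05) has the highest mean of the 6, and Hoxa10 (0.44) is the open point.

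Most genes posterior to these members had few counts. Of the 8 Hox genes of groups 11 to 13 other than Hoxb13, which pattern the distal limb, tail and genital region, 2 entered the test and both rose. Hoxc13, known from hair and nails, went from 24 and 12 counts in WT to 96 and 80 in CBE-KO (log2 fold change 2.17 ± 0.29, SE; edgeR adjusted p = 1.01e-05). Hoxd13, a digit-patterning gene, had 12 and 7 counts against 41 and 28 (1.73 ± 0.40, SE; edgeR adjusted p = 0.00206). Hoxc11 went from 0 in both WT libraries to 16 and 9 counts in CBE-KO, and Hoxc12 had 1 and 0 against 6 and 19. Hoxa11 (4, 2, 5 and 10 counts, WT first) and Hoxa13 (4, 0, 14 and 4) were each above 3 counts in 3 of 4 libraries. Hoxd11 (0, 0, 1 and 1) and Hoxd12 (0, 3, 0 and 3) were above the floor in no library. Without the filter all 8 could be fitted and 4 passed, Hoxc11 (edgeR adjusted p = 2.44e-05) and Hoxc12 (adjusted p = 0.00026) beside Hoxc13 and Hoxd13. For Hoxc13 and Hoxd13 that fit gave smaller adjusted p-values than the filtered one (edgeR, 3.18e-14 and 6.44e-05). DESeq2 gave no adjusted p for Hoxc11 and Hoxc12.

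Toward the anterior side, 9 of the 11 genes of groups 5 to 8 rose and 2 did not pass. Of the 12 genes of groups 1 to 4, which pattern the hindbrain and neck, 10 were tested, 6 rose and 4 did not pass. DESeq2 called 8 and 4 of these. The median log2 fold change of the tested genes of groups 1 to 4 was 0.54. In HoxA the value ran from 0.32 to 1.34 over groups 1 to 4 and from 0.87 to 1.51 over the tested genes of groups 5 to 8, beside 1.97 and 0.44 for Hoxa9 and Hoxa10. In HoxB it was 0.19 to 0.32 over groups 1 to 4 and -0.24 to 1.25 over groups 5 to 8, beside 1.05 for Hoxb9 and 1.75 for Hoxb13. In HoxC all 7 tested genes rose, with 3.37 to 6.01 over groups 5 to 8, beside 5.22 for Hoxc9 and 3.43 for Hoxc10. Like these members, Hoxc6 (2 and 2 WT counts), Hoxc8 (0 and 1) and, in HoxD, Hoxd8 (3 and 2) entered the test through their CBE-KO libraries alone. Their rise was partly fixed by the filter, and the counts of genes that rose and the median of groups 5 to 8 include it. In HoxD, Hoxd1 (0.99) and Hoxd8 (2.50) rose beside Hoxd13, and neither passed in DESeq2 (adjusted p = 0.263 and 0.0755). Whether these changes differ between positions in a cluster was not tested.

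**Figure D3:**
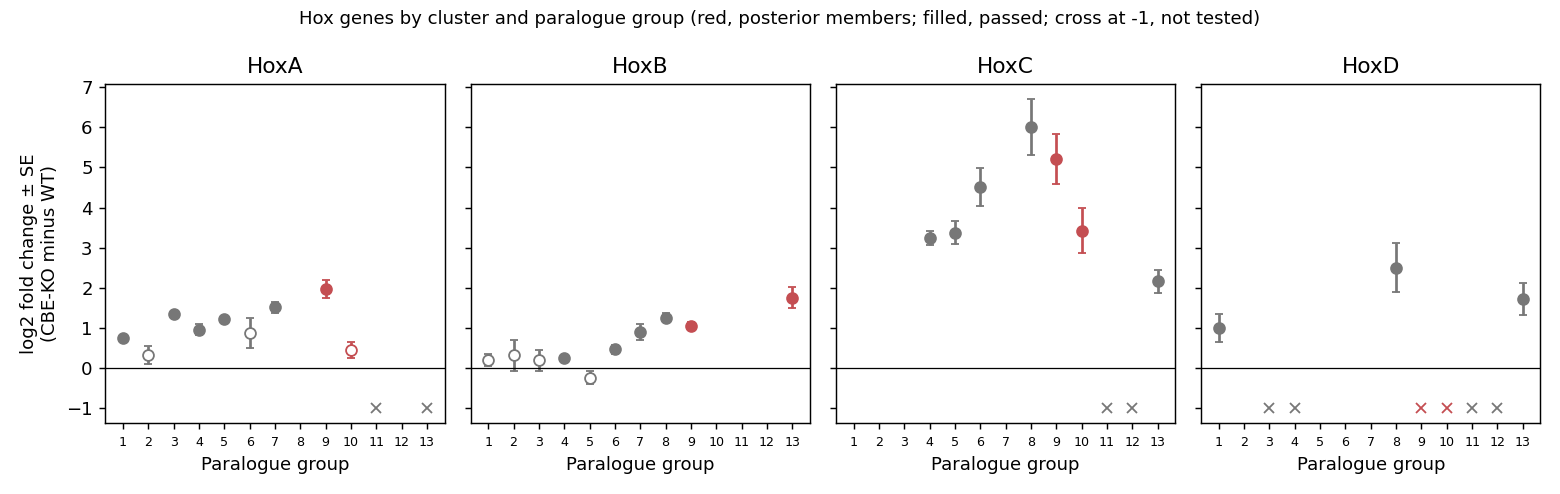
Log2 fold change (CBE-KO minus WT, with SE) of the Hox genes by paralogue group in each of the 4 clusters. Red points are the posterior members and grey points the other Hox genes, filled where the test passed, with crosses at -1 for genes not tested; the HoxC values, 2.17 to 6.01, lie above those of the HoxA and HoxB members, and the HoxD members are crosses.

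A pair of microRNA sequences marks the intervals between these genes. The 3 miR-196 genes sit beside posterior Hox genes: Mir196b (chr6) between Hoxa9 and Hoxa10, Mir196a-1 (chr11) between Hoxb13 and Hoxb9, and Mir196a-2 (chr15) between Hoxc10 and Hoxc9, by RefSeq positions. Their mature 5p sequences are given from RefSeq (GRCm38.p6) with the seed, bases 2 to 8, in capitals, because miR-196 is known to cleave Hoxb8 RNA and to repress other Hox genes.
mmu-miR-196a-5p: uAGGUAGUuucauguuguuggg
mmu-miR-196b-5p: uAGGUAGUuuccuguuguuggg
They share the seed and differ at 1 base. In the gene counts, which do not measure mature microRNAs, the Mir196a-1 locus gave 48 and 46 counts in the WT libraries and 75 and 63 in the CBE-KO libraries, a log2 fold change of 0.43 ± 0.23 (SE) that did not pass (edgeR adjusted p = 0.134). Mir196a-2 and Mir196b had 0 counts in all 4 libraries, below the floor of 3 counts. The noncoding gene Gm53, in the same Hoxb13 to Hoxb9 interval, rose from 338 and 296 counts to 496 and 473 (log2 fold change 0.50 ± 0.09, SE; edgeR adjusted p = 0.000249).

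The list of Hox cluster neighbours held genes beyond either end of a cluster and inside it. Of these, 8 of 14 were tested, 4 rose and 4 did not pass, with a median of 0.38. The 4 were Hoxaas3 (0.96), Ttll6 (0.82), Smug1 (0.62) and Lnpk (0.32). Hoxaas3 is a noncoding RNA whose RefSeq span overlaps Hoxa3, Hoxa5 and Hoxa6. Ttll6, a tubulin-modifying enzyme, lies past the Hoxb13 end of HoxB. Lnpk, an endoplasmic reticulum protein, lies past the Hoxd13 end of HoxD. Smug1, a DNA repair enzyme, lies past the Hoxc4 end of HoxC, which is the anterior one. DESeq2 called 2 of the 4, Ttll6 and Smug1. Hottip, a noncoding RNA at the posterior end of HoxA, was at 0 in every library, and Hotair, in the HoxC cluster, had 0, 0, 6 and 4 counts (WT first). No source states whether counting used strand, so antisense genes such as Hoxaas3 cannot be told apart from the Hox genes they overlap.

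Genes that act upstream of posterior Hox genes, or with their proteins, were counted in the same fit. Of 15 regulators, among them the Cdx factors, which activate posterior Hox genes, and the tail-bud signals, 11 were tested, 5 rose and 2 fell, with a median of 0.22. Those with the largest changes were Cyp26a1, which degrades retinoic acid (1.70), Aldh1a2, which makes it (1.53), Fgf8, a tail-bud signal (1.42), and Lin28a, an RNA-binding protein of stem cells and early axial progenitors (-1.05). Cdx1 rose by 0.32, whereas Cdx2, at 20 and 16 counts in WT against 10 and 15 in CBE-KO, did not pass (-0.63, edgeR adjusted p = 0.258), and Cdx4 had 4 to 7 counts. Of the other signals listed, Gdf11 rose (0.54) and Fgf4 fell (-0.34). Wnt3a, at 9 and 8 counts in WT against 5 and 1 in CBE-KO, did not enter the test. DESeq2 called 4 of these regulators, 2 higher and 2 lower, without Fgf8, Aldh1a2 and Gdf11. Fgf8, at 8 and 4 counts in WT against 13 and 22 in CBE-KO, entered the test through its CBE-KO libraries alone. Its rise was partly fixed by the filter, and the 5 regulators that rose include it. All 9 cofactors were tested, 5 rose and 1 fell (median 0.45). Those that rose included the TALE partners Meis2 (0.88), Meis1 (0.78) and Pbx3 (0.57), of which Pbx3 did not pass in DESeq2 (4 cofactors called). Of 19 Polycomb and trithorax genes, whose products silence or keep active the Hox clusters, all were tested, 5 rose and 7 fell (median -0.09). Those that passed included Cbx8 (0.66), Ring1 (0.56) and Eed (-0.46), and the split depended on processing, at 6 higher and 3 lower with library totals alone and 1 higher and 6 lower in DESeq2, where Cbx8 did not pass.

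Markers of cell identity were read beside these values, and their part in the members' changes was not tested. All 8 pluripotency markers were found, summing to 6762 to 6996 CPM in WT and 7175 to 7293 in CBE-KO, with Dppa3 low at 6 to 10 counts, so the cells carried the stem cell markers of their label. Of the 7 tested, 4 fell, Pou5f1 (-0.33), Sox2 (-0.35), Zfp42 (-0.42) and Klf4 (-0.49), and 2 rose, Nanog (0.15) and Dppa5a (0.28), with a median of -0.33. Within the sums, Dppa5a alone went from 3548 and 3434 CPM in WT to 4196 and 4297 CPM in CBE-KO. The 6 neuroectoderm markers summed to 35.0 to 35.7 CPM in WT and 59.5 to 60.5 in CBE-KO. Within these sums, Sox3 alone went from 12.2 and 11.8 CPM in WT to 32.9 and 32.2 CPM in CBE-KO. Of the 4 tested, 3 were higher past the threshold (2 in DESeq2), while Olig2 and Neurog2 had at most 4 counts. Nes did not pass and was lower in both CBE-KO libraries (-0.31, edgeR adjusted p = 0.0687). Pax6, among the 3 that rose, had 10 and 9 counts in WT against 40 and 41 in CBE-KO. It entered the test through its CBE-KO libraries alone, so its rise was partly fixed by the filter. The 6 endoderm markers summed to 70.3 to 73.3 and 84.5 to 87.3 CPM, with 3 of 6 higher. The 6 mesoderm markers summed to 5.33 to 5.37 and 5.78 to 6.79 CPM. Of the 4 tested, 1 was higher (Kdr, 6 and 6 against 15 and 22 counts), and 0 were called in DESeq2. Like Pax6, Kdr entered the test through its CBE-KO libraries alone. Msgn1 had 0 counts in WT and 1 in each CBE-KO library. The 6 trophoblast markers summed to 38.0 to 38.5 and 30.0 to 30.1 CPM, with 1 of 5 tested lower. The 6 fibroblast or feeder markers summed to 22.8 to 26.7 and 27.2 to 29.6 CPM, with 1 of 3 tested higher (Col1a1, not called in DESeq2), Dcn at 0 in all libraries, Col1a2 at 0, 1, 12 and 8 counts and Col3a1 at 0, 0, 8 and 1.

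For each tested member, the genes with the most similar pattern over the 4 libraries were found. The measure was the distance between log2 CPM profiles centred on their own means. Candidates were tested genes with a symbol within a factor of 2 in mean CPM. The members themselves were left out as candidates, so likeness between members was not examined. Nearest to Hoxa9 were A2m (distance 0.112) and Xlr4a (0.119), and nearest to Hoxb9 were Nrep (0.0266) and Gpr137b (0.0591). Hoxa10 was matched by Tmem151a (0.0222) and Dock3 (0.0297), neither of which passed the test, and Hoxb13 by Snap91 (0.0856) and Fhdc1 (0.100). For Hoxc9 the nearest were its cluster neighbour Hoxc8 (0.802) and the Y-linked Zfy1 (0.880), and for Hoxc10 they were Gm5576 (0.542) and Cckbr (0.584). The distances of the HoxC genes were the widest of the 6 members, at WT counts of 0 to 4. A profile of 4 libraries in 2 groups can be shared by many genes, and these lists describe likeness only.

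Hoxa9, Hoxb9, Hoxc9, Hoxc10 and Hoxb13 passed under DESeq2, under the other filters and scalings, and with the block on replicate number. With each library left out in turn their log2 fold changes stayed positive, the lowest being 1.04 for Hoxb9. Those refits kept the genes that had passed the filter with all 4 libraries. Hoxc9 and Hoxc10 were among these through their CBE-KO libraries alone.

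**Figure D4:**
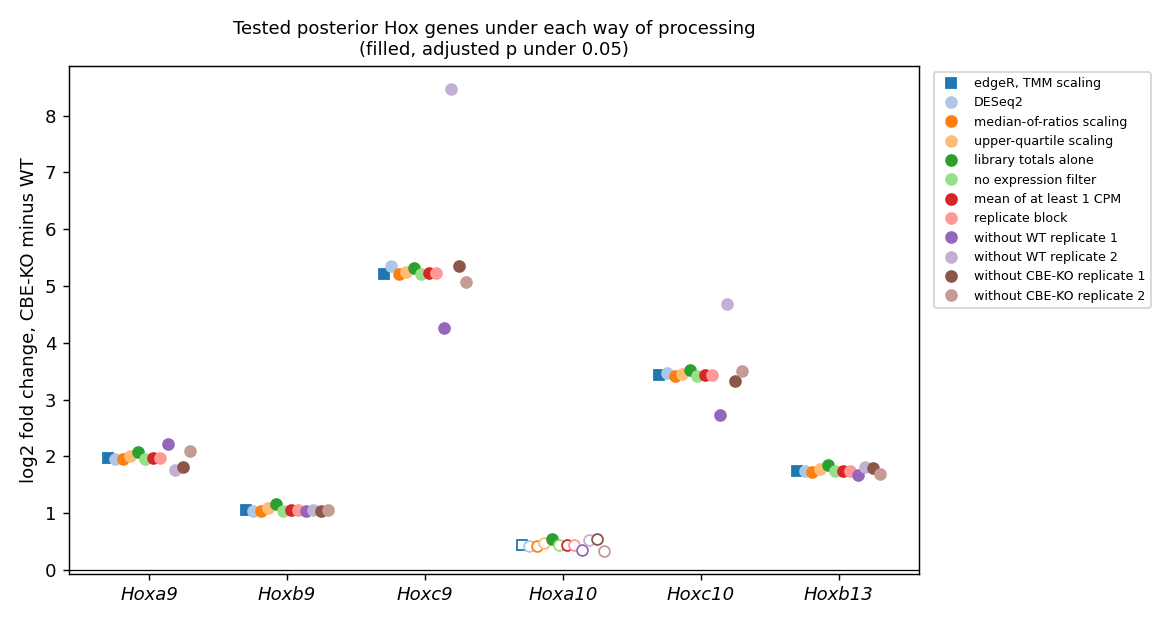
Log2 fold change (CBE-KO minus WT) of the 6 tested posterior Hox genes under edgeR with TMM scaling (squares) and under 11 alternatives (circles), filled where the adjusted p was under 0.05. Hoxb9 stays between 1.04 and 1.16, Hoxc9 spreads from 4.26 to 8.47 with 1 WT library left out, and Hoxa10 is filled with library totals alone.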

How the data were processed

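RNA was measured in 4 libraries of retinoic acid-treated E14 cells, 2 WT and 2 CBE-KO, grouped by sample title. Capture-C samples (6) are not analysed here. The authors deposited whole-number read counts per Ensembl gene, 1 table per library, without normalization. The submitters' processing notes name HISAT2 2.1.0, HTSeq 0.9.1, DESeq2 1.18.1, Bowtie2 2.3.1 and the mm10 build (GRCm38), without saying which step used which; the annotation release, the strand setting and the handling of multi-mapped reads are not given in the sources used here. Paralogous, overlapping and antisense genes are therefore uncertain. Symbols came from a supplied table that matched 52403 of 52636 identifiers. Coordinates and sequences are RefSeq's for GRCm38. Transcript lengths were not used, so levels are not ranked between genes.

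Genes passing filterByExpr (16005) were tested with edgeR 4.0.16 in R 4.3.3 (TMM scaling, glmQLFit, glmQLFTest, two-sided, no covariate, Benjamini-Hochberg over all tested genes, threshold 0.05). The SE is the absolute log2 fold change over the square root of F. DESeq2 1.42.0 was an alternative. Ratios of summed counts carry exact Clopper-Pearson intervals, scaled to library size. Replicates differed beyond sampling noise (chi-square per degree of freedom 3.40 in WT and 2.70 in CBE-KO). The code was tested on simulated counts. Members and lists were chosen with earlier results of these data known. Named genes were all members, the Hox genes of groups 11 to 13, the 4 largest passing changes of each other list of regulators, cofactors, Polycomb and trithorax genes and neighbours, the 2 nearest patterns per member, Ctcf and 3 Y-linked genes. Some genes that this rule names are not reported here. Gm53, Cdx1, Cdx2, Cdx4, Gdf11, Fgf4, Wnt3a, Hottip, Hotair, the miR-196 genes and the markers given singly were named after their values were seen.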

Additional observations from a re-analysis of the deposited data

How the results depend on the processing

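The count of posterior Hox genes called, 5 with edgeR and TMM scaling, was 5 or 6 under each alternative, and every call was higher in CBE-KO; leaving out a library gave 5 to 5. The 6 arose with library totals alone (Hoxa10 added, 0.547) and without an expression filter (Hoxd9 added). Of the 66 refits of single members, 65 kept direction and side of the threshold. The count over all genes, 6895, lay within 1.5 times of that value except in DESeq2, at 4145 (1766 higher, 2379 lower), and when a change of at least 1 on the log2 scale was also required, at 1383; leaving out a library gave 5385 to 6500. The cause of the DESeq2 gap was not tested; the second follows from the added condition. The share of calls that were higher in CBE-KO was 50.2% with TMM scaling, 67.0% with library totals alone and 42.6% in DESeq2. With 1 library left in a group, its spread was assumed to equal that of the other group.

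The titles number the replicates 1 and 2 in both groups, and the labels do not tie same-numbered libraries together. Across tested genes, same-numbered libraries deviated from their group means with a correlation of 0.030. With the replicate block, 5 members and 7027 genes were called, and no member's call changed. Depth limits Hoxd9, Hoxd10 and the WT level of Hoxc9 and Hoxc10, where a few reads set the size of the fold.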
